A study of Mus musculus with 8 samples.

Results

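The expression of Kupffer cell and macrophage genes was compared between livers of Snd1 KO mice and their WT littermates. The group consisted of 36 genes named by gene symbol, 10 of which were counted as Kupffer genes and 26 as general myeloid genes. Other macrophages can express genes of the first class too. Of the 36 genes, 33 had a probe with their symbol on the array and 27 were measured, i.e. stood above background on 4 or more of the 8 arrays, with a detection p-value under 0.05. The 27 measured genes comprised 9 of the 10 Kupffer genes and 18 of the 26 general myeloid genes, out of 8134 genes measured in all. None of the 27 genes passed the threshold of an adjusted p-value of 0.05 (limma, Benjamini-Hochberg over all measured genes), in either direction. Of all measured genes, 1.36% passed it as lower and 1.18% as higher in KO livers. At an unadjusted p-value under 0.05 limma gave 8.54% of all measured genes as lower and 8.88% as higher. At that threshold it gave 10 of the 27 genes, all lower in the KO livers: Timd4, Folr2, C1qa, C1qb, C1qc, Cd14, Fcgr1, Tyrobp, Aif1 and Lst1. Of these, Fcgr1 was detected on 1 KO array and 3 WT arrays, so it passed the detection filter mainly through the WT group. The estimate was below 0 in 23 of the 27 genes, against 50.3% of all measured genes. The smallest adjusted p-values were those of Folr2, the folate receptor beta (1.56-fold lower in KO livers, adjusted p = 0.0523), and of Lst1, leukocyte-specific transcript 1 (1.89-fold lower, adjusted p = 0.0643).

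Kupffer cells are the resident macrophages of the liver. They sit in the lumen of the sinusoids and take up bacteria, immune complexes, dying cells and aged erythrocytes from the portal blood, using scavenger receptors, complement receptors, Fc receptors and receptors for exposed phosphatidylserine. They are also a main source of the complement component C1q in the liver. Many general myeloid genes are shared with monocytes, neutrophils and dendritic cells, so they do not identify the resident cells. In RNA of whole liver, fewer cells of a type and less RNA per cell cannot be told apart.

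The mice were males of 8 to 12 weeks, and the RNA came from the left liver lobe of animals that had not been fasted and were killed around noon. The KO group (n = 4) carried a homozygous germline deletion of exon 1 of Snd1, made in 129/Sv embryonic stem cells and removed with a CAG-driven Cre that acts in the whole body, and the line was backcrossed to C57BL/6N. The WT group (n = 4) consisted of C57BL/6N animals from the same line. Since the deletion was in every cell, macrophages and hepatocytes both lacked the gene. Snd1 itself had a normalised log2 intensity of 4.24, 4.20, 4.22 and 4.15 on the 4 KO arrays, none of which detected it, against 6.79, 6.76, 6.75 and 6.87 on the 4 WT arrays. This was at least 4.90-fold lower in KO livers (adjusted p = 3.03e-07 in limma). The bound compares the WT mean with the lowest detected signal of each KO array. The mean intensity of the arrays was 215 to 290 in KO and 262 to 283 in WT, and 10684 to 12134 probes were detected. KO 1 (215) and KO 4 (223) were dimmer than all other arrays. The KO arrays were more scattered than the WT arrays on the first principal component (−7.38 to 32.3 in KO, −14.9 to −10.6 in WT, 44.5% of the variance). Over all genes 207 of 8134 were called.

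In the following, a level is the normalised log2 intensity of a probe, and levels of different genes cannot be set against each other. Of the genes counted as Kupffer genes, Clec4f, Vsig4, Folr2 and all C1q chains were detected on all 8 arrays. Cd5l, a secreted scavenger receptor protein of macrophages, was detected on no array. Other undetected members were Itgam (CD11b), Msr1 (scavenger receptor A), Cybb (the catalytic subunit of the phagocyte NADPH oxidase) and Ptprc (CD45), while Cx3cr1, a chemokine receptor of monocytes, was detected on 1 KO array. A probe below background gives no level, so no comparison was made for these 6 genes. Csf1r, Cd68 and Mpeg1 had no probe under that symbol and were not analysed here. Of the 27 measured genes, 20 were detected on all 8 arrays.

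The promoters of the members are shown for a sequence feature that many myeloid genes have, the purine-rich core bound by PU.1, the product of Spi1 and a main transcription factor of macrophages. GAGGAA was searched on both strands (TTCCTC on the other strand; the 2 forms do not overlap) in the 250 bases before each gene start, in RefSeq promoters of GRCm38.p6. Of the 27 measured genes, 21 had a promoter entry, and 11 of these (52.4%) held the motif, against 6986 of 27025 genes (25.9%) with an entry. The share was 4 of 8 among the Kupffer genes and 7 of 13 among the general myeloid genes. No match was found in these windows for Clec4f, Folr2, Timd4, Cd163, Fcer1g, Lyz2, Lgmn, Coro1a, Ms4a7 and Ccl6. The windows of 5 members that recur below are printed 5′ to 3′ on the gene's strand, with the motif in capitals. They are C1qb (chr4:136886201-136886260, minus strand), C1qc (chr4:136893072-136893137, minus strand), Marco (chr1:120505135-120505200, minus strand), Vsig4 (chrX:96293456-96293521, minus strand) and Laptm5 (chr4:130913248-130913313, plus strand). 
C1qb: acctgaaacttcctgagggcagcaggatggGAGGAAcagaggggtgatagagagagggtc
C1qc: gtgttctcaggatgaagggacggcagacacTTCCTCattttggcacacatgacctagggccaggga
Marco: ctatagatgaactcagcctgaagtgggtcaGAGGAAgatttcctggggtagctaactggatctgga
Vsig4: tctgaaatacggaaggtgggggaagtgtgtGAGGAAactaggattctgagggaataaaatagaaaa
Laptm5: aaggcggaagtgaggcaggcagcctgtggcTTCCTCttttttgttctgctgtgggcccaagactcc
These matches describe the letters of the windows and are no evidence of binding. C1qb, C1qc and Marco had lower estimates than Vsig4 and Laptm5 in the comparison below. All 5 windows were cut around a match, so they cannot relate the motif to the estimates. The estimate of Marco rested on a single array, WT 4, and was −0.03 without it.

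The receptors by which resident cells recognise their targets were examined first. Folr2 had levels of 6.29, 6.20, 6.32 and 6.39 in KO livers, against 6.49, 7.07, 7.15 and 7.08 in WT livers. The groups did not overlap, and the KO arrays lay within a narrow band (SD 0.08 in KO and 0.31 in WT, n = 4 each). The log2 fold change was −0.65 ± 0.15 (SE; 95% confidence interval −0.98 to −0.31), and its adjusted p of 0.0523 did not pass. In the authors' processed values it was −0.38 (adjusted p = 0.0655). One WT array, WT 1, stood nearer to the KO arrays than to the other WT arrays. Without WT 1 the log2 fold change was −0.79, and limma called Folr2 (adjusted p = 0.0108). It was also called without KO 1 (adjusted p = 0.049).

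Timd4, the phosphatidylserine receptor that marks long-lived resident macrophages, had levels of 4.74, 4.60, 5.27 and 4.96 in KO livers, against 5.06, 5.28, 5.32 and 5.68 in WT livers. The groups overlapped through KO 3, with a log2 fold change of −0.44 ± 0.17 (adjusted p = 0.22). Clec4f, the galactose-binding lectin restricted to Kupffer cells in mice, had levels of 8.34, 8.47, 8.38 and 8.63 in KO livers, against 8.41, 8.59, 8.83 and 8.77 in WT livers. Its difference was small and the groups overlapped (−0.19 ± 0.13, adjusted p = 0.456, 95% confidence interval −0.47 to 0.08). A further probe of Clec4f gave −0.11. Vsig4, the complement receptor for C3b and iC3b, had levels of 8.83, 9.29, 9.72 and 9.97 in KO livers, against 9.11, 9.71, 9.87 and 9.82 in WT livers. The KO arrays spanned the whole WT range (−0.17 ± 0.25, adjusted p = 0.767), and without KO 1 the estimate was 0.03.

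Of the scavenger receptors, Marco, which binds bacteria and particles, had levels of 5.08, 5.10, 5.37 and 4.97 in KO livers, against 5.04, 5.12, 5.32 and 6.86 in WT livers. A single array, WT 4, set the WT mean: the log2 fold change was −0.45 ± 0.34 (adjusted p = 0.536) and −0.03 without WT 4. Cd163, the receptor for haemoglobin-haptoglobin complexes, had levels of 6.32, 6.67, 6.70 and 6.82 in KO livers, against 7.05, 6.72, 6.67 and 7.19 in WT livers. It did not pass the test (−0.28 ± 0.15, adjusted p = 0.38), and WT 2 and WT 3 were within the KO range.

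The 3 chains of C1q form the recognition unit of the classical complement pathway. C1qa had levels of 6.75, 7.0, 6.81 and 6.38 in KO livers, against 6.87, 7.16, 7.17 and 7.46 in WT livers. C1qb had levels of 8.74, 8.67, 8.61 and 8.66 in KO livers, against 8.73, 9.21, 9.32 and 9.53 in WT livers. C1qc had levels of 8.35, 8.29, 8.34 and 8.12 in KO livers, against 8.27, 8.62, 8.76 and 9.17 in WT livers. In all chains WT 1 was the lowest WT array and lay within the KO range, and WT 4 was the highest. The KO arrays had no common order over the chains: KO 4 was the lowest for C1qa and C1qc, and KO 3 for C1qb. Those of C1qb were close together (SD 0.05 in KO and 0.34 in WT). The log2 fold changes were −0.43 ± 0.16 for C1qa (adjusted p = 0.197), −0.52 ± 0.16 for C1qb (adjusted p = 0.117) and −0.43 ± 0.17 for C1qc (adjusted p = 0.231). Without WT 1, C1qb was called (−0.68, adjusted p = 0.0238). Of 6 measured genes of the C1 complex and the classical pathway, none was called by limma (1 lower at an unadjusted p-value under 0.05) and their median log2 fold change was 0.04. Among them were C4b, complement C4 (−0.35, adjusted p = 0.159), and Serping1, the C1 inhibitor (0.10, adjusted p = 0.72; −0.10 under median scaling).

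**Figure D1:**
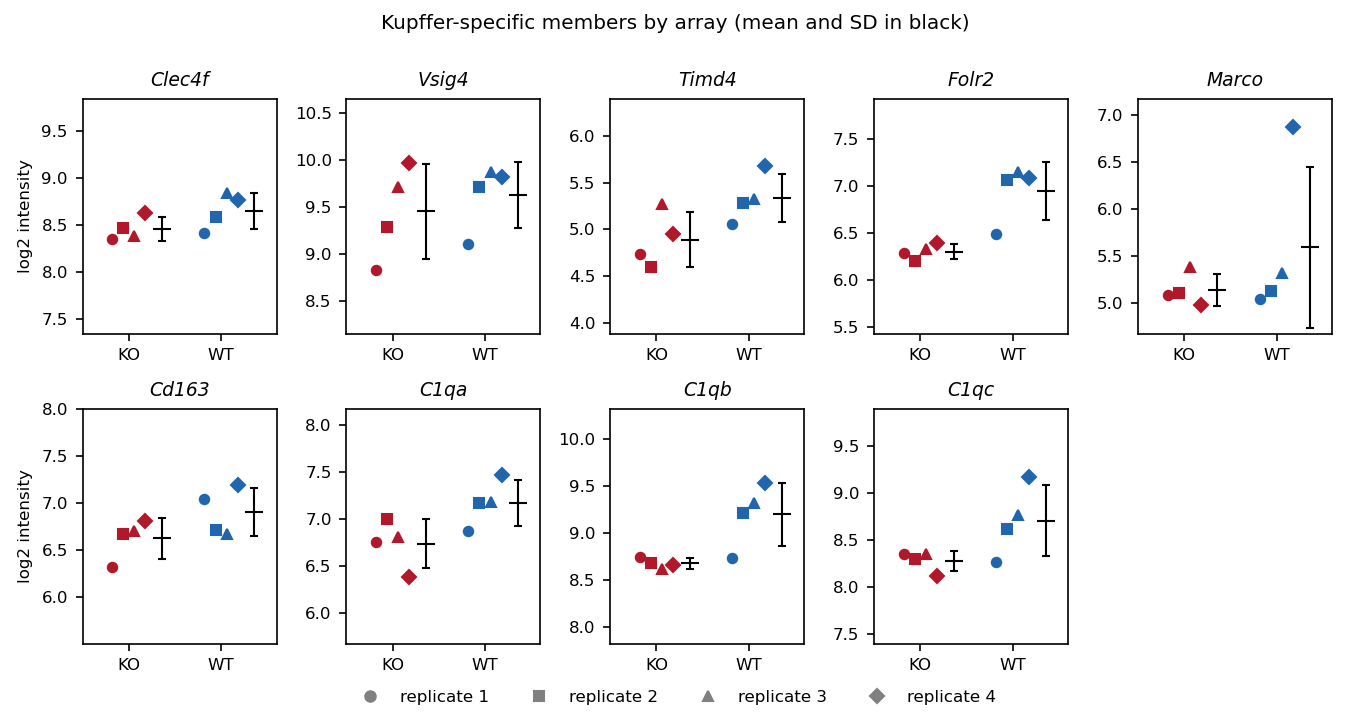
Normalised log2 intensity of the 9 measured Kupffer genes, 1 panel per gene, with 1 point per array (KO left, WT right) and a line at each group mean. Only Folr2 had all KO points below all WT points, and WT 1 was the lowest WT array in 8 of the 9 genes.

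Among the general surface receptors, Cd14, the co-receptor for lipopolysaccharide, had levels of 5.49, 5.10, 5.03 and 5.06 in KO livers, against 5.69, 5.53, 5.50 and 5.84 in WT livers. The groups did not overlap, though KO 1 and WT 3 were nearly equal. The log2 fold change was −0.47 ± 0.14 (adjusted p = 0.109), and without KO 1 it was −0.59 and was called (adjusted p = 0.0202). Adgre1, which encodes the macrophage antigen F4/80, had levels of 5.33, 6.01, 6.14 and 6.64 in KO livers, against 5.85, 5.87, 6.46 and 7.05 in WT livers. It was widely spread in both groups (SD 0.54 in KO and 0.57 in WT) and did not pass (−0.28, adjusted p = 0.697). Further probes of Adgre1 above the filter gave 0.04 and −0.21.

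The Fc receptors signal through small adaptors with an ITAM, and these adaptors are shared with many other receptors. Tyrobp (DAP12) had levels of 5.77, 6.58, 5.65 and 5.06 in KO livers, against 6.03, 6.30, 6.68 and 6.94 in WT livers. Fcer1g, the common Fc receptor gamma chain, had levels of 7.96, 7.75, 7.30 and 6.73 in KO livers, against 7.61, 7.74, 8.05 and 8.23 in WT livers. KO 4 was the lowest array for both adaptors, while the highest KO array lay inside the WT range. The log2 fold changes were −0.72 ± 0.29 for Tyrobp (adjusted p = 0.235) and −0.47 ± 0.25 for Fcer1g (adjusted p = 0.364). The receptors themselves had smaller estimates. Fcgr1, the high-affinity IgG receptor, had levels of 4.43, 4.35, 4.58 and 4.28 in KO livers, against 4.72, 4.47, 4.92 and 4.71 in WT livers (−0.29, adjusted p = 0.253). It was detected on 1 KO array and 3 WT arrays, so it passed the detection filter mainly through the WT group. Fcgr3, a low-affinity IgG receptor, ranged over 5.52 to 5.95 in KO livers and 5.68 to 6.11 in WT livers (−0.19, adjusted p = 0.52). The IgG receptors resemble each other in sequence, and Fcgr3 is uncertain as a single gene.

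Of the 5 lysosomal genes, 4 differed by 0.11 or less on the log2 scale. Ctsc, the dipeptidyl peptidase that activates serine proteases of granules, had levels of 8.63, 9.24, 9.56 and 9.52 in KO livers, against 8.81, 9.27, 9.44 and 9.58 in WT livers (−0.03, adjusted p = 0.96). Further probes of Ctsc gave 0.06 and 0.04. Laptm5, a lysosomal membrane protein of leukocytes, had levels of 8.61, 9.08, 9.41 and 9.65 in KO livers, against 8.88, 9.29, 9.24 and 9.76 in WT livers (−0.11, adjusted p = 0.864). In both genes array 1 was the lowest of its group. The estimate was −0.02 for Ctss, the cathepsin that trims the invariant chain (adjusted p = 0.973), and 0.01 for Lgmn, the asparaginyl endopeptidase (adjusted p = 0.989). The confidence interval of Lgmn was −0.37 to 0.39, so differences within these bounds were compatible with its values. Lyz2, the lysozyme of macrophages and granulocytes, had a larger estimate, with levels of 8.28, 8.20, 8.76 and 8.74 in KO livers, against 8.54, 8.77, 9.09 and 9.15 in WT livers. Its log2 fold change was −0.39 ± 0.18 (adjusted p = 0.293), and a further probe of the gene gave −0.70. Lyz2 has a close copy, Lyz1, and the probes may bind both transcripts.

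In the group of cytoskeletal and other effector proteins, Lst1 had the lowest estimate of all members. Its levels were 5.24, 5.62, 4.92 and 4.35 in KO livers, against 5.79, 5.89, 6.02 and 6.12 in WT livers. The groups did not overlap, the WT arrays were close together (SD 0.15, against 0.54 in KO), and 3 of the 4 KO arrays detected the gene. The log2 fold change was −0.92 ± 0.23 (95% confidence interval −1.43 to −0.41, adjusted p = 0.0643). In the authors' processed values, where dim probes are compressed, it was −0.35 (adjusted p = 0.0766). Without KO 1 or without KO 2 limma called Lst1 (adjusted p = 0.0463 and 0.034). Aif1, the actin-bundling protein Iba1 of macrophages and microglia, had levels of 6.32, 6.62, 6.32 and 5.93 in KO livers, against 6.36, 6.87, 7.08 and 7.52 in WT livers. WT 1 lay within the KO range, and the log2 fold change was −0.66 ± 0.23 (adjusted p = 0.169), with −0.61 for a further probe. Coro1a, an actin regulator of leukocytes, differed by 0.04 (adjusted p = 0.902), and its 3 further probes above the filter gave both signs. Ms4a7, a tetraspan membrane protein, differed by 0.03 (adjusted p = 0.939) and was detected on 2 arrays of each group.

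The remaining members are expressed across leukocytes. Ccl6, a chemokine, had levels of 5.17, 4.58, 4.61 and 4.37 in KO livers, against 5.41, 5.04, 4.71 and 4.99 in WT livers (−0.35 ± 0.19, adjusted p = 0.377). KO 1 lay within the WT range and the other KO arrays below it. Spi1 ranged over 4.22 to 4.69 in KO livers and 4.41 to 4.73 in WT livers (−0.16, adjusted p = 0.568). Cd53, a tetraspanin, ranged over 4.38 to 5.22 in KO livers and 4.65 to 4.96 in WT livers (0.05, adjusted p = 0.918). The WT range of Cd53 lay wholly inside its KO range.

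**Figure D2:**
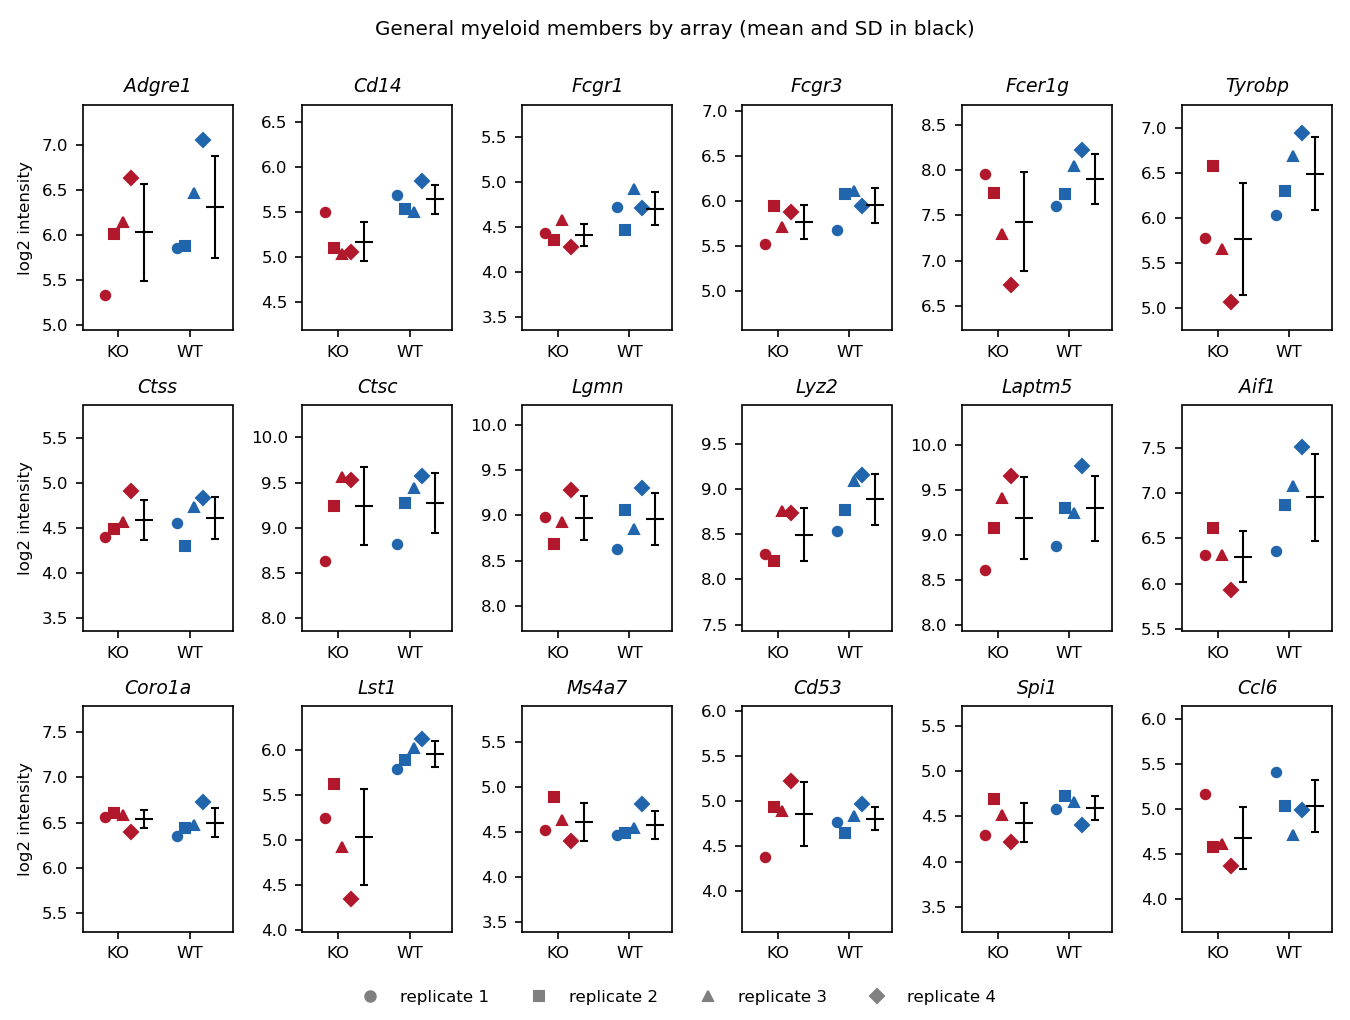
Normalised log2 intensity of the 18 measured general myeloid genes, 1 panel per gene, with 1 point per array (KO left, WT right) and a line at each group mean. All KO points were below all WT points for Cd14 and Lst1, while Ctss, Ctsc, Lgmn, Laptm5, Coro1a, Ms4a7 and Cd53 had overlapping groups with nearly equal means.

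The counts over the members are read beside the same counts over all 8134 measured genes. Called genes were 0 of 27 among the members in each direction, whereas over all genes 1.36% were called lower and 1.18% higher in KO livers. At an unadjusted p-value under 0.05, 10 of the 27 members were lower and 0 were higher in KO livers, against 8.54% and 8.88% of all genes. Fcgr1, among these 10, passed the detection filter mainly through the WT group. All KO values were below all WT values in 3 of the 27 members (Folr2, Cd14 and Lst1), or 11.1%, against 5.38% of all genes, and above them in 0 members, against 5.37% of all genes. A log2 fold change below 0 was found in 23 members, against 50.3% of all genes, and the 4 members above 0 (Lgmn, Coro1a, Ms4a7 and Cd53) differed by 0.05 or less. The median log2 fold change was −0.29 over the members and −0.0014 over all genes. The members share arrays and in part cells, and they are therefore not independent of each other. Among the 20 members detected on all 8 arrays, 18 were below 0 with a median of −0.41. Of these 20 members, 8 were lower and 0 higher at an unadjusted p-value under 0.05 in limma.

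**Figure D3:**
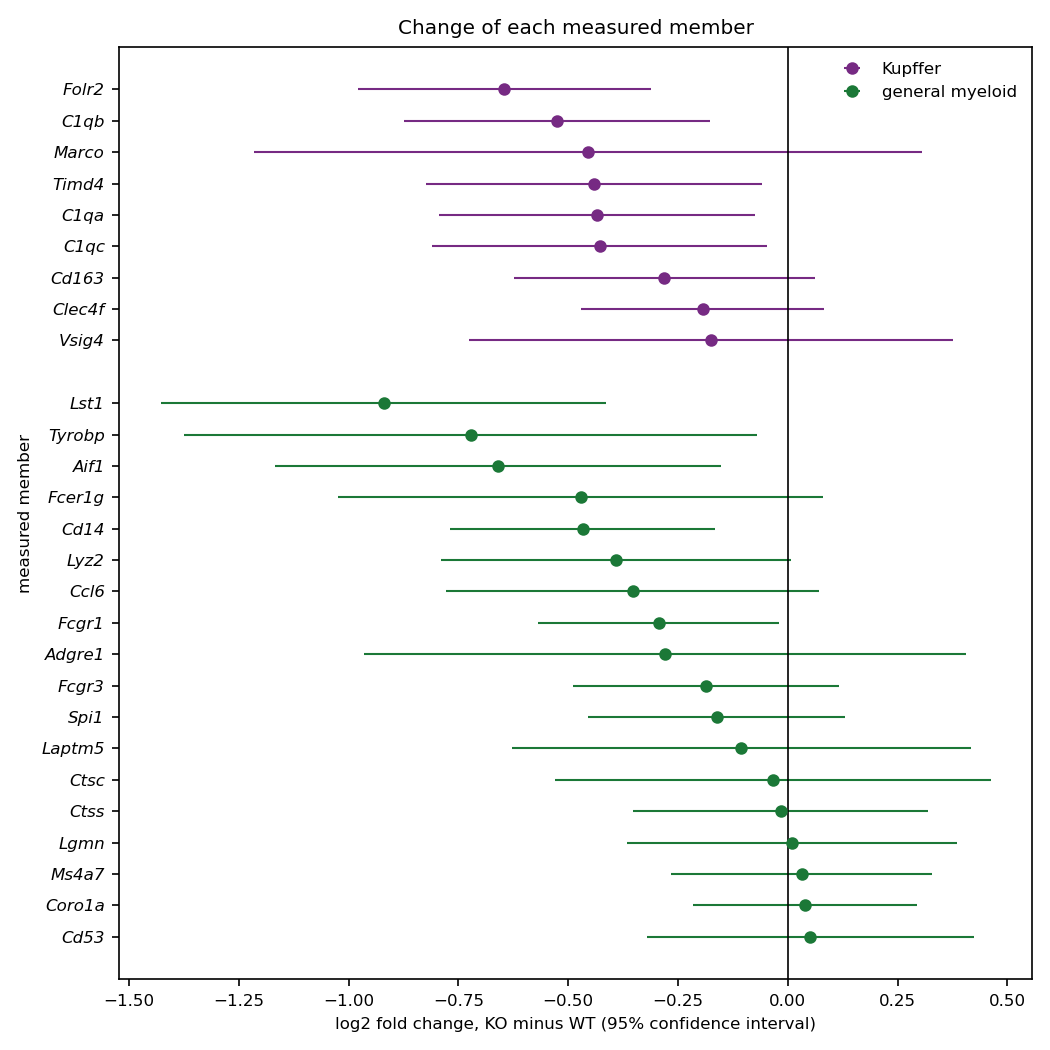
Log2 fold change of KO over WT for the 27 measured members, with 95% confidence intervals from limma and the Kupffer genes and the general myeloid genes in separate colours. The estimates run from −0.92 for Lst1 to 0.05 for Cd53, 23 of 27 are below 0, and none has an adjusted p-value under 0.05.

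Kupffer genes were then set against general myeloid genes. All 9 Kupffer genes had an estimate below 0, 5 of them with an unadjusted p-value under 0.05, and their median log2 fold change was −0.43. Of the 18 general myeloid genes 14 were below 0, 5 with an unadjusted p-value under 0.05 (Fcgr1 among them, detected mainly in the WT group), and their median was −0.23 (−0.11 without KO 1). The median of the Kupffer genes was thus lower by 0.20 on the log2 scale. All 9 Kupffer genes but only 11 of the 18 general genes were detected on all 8 arrays. With genes detected on all 8 arrays only, the general median was −0.28 and the difference −0.155. By role, the median was −0.43 for the C1q chains, −0.37 for the scavenger receptors and −0.32 for the recognition receptors, and within the general genes −0.38 for the Fc receptors and adaptors, −0.37 for the surface receptors, −0.31 for the effector proteins, −0.16 for the leukocyte genes and −0.03 for the lysosomal genes. The lysosomal genes and the Fc receptors with their adaptors were thus farther apart than the Kupffer and general classes.

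The difference between the classes was also followed array by array, as the median over the genes of a class of the level minus its WT mean. For Kupffer genes this median was −0.51, −0.41, −0.27 and −0.54 on KO arrays 1 to 4, against −0.44, −0.05, 0.06 and 0.30 on WT arrays 1 to 4. For general myeloid genes it was −0.36, −0.19, −0.13 and −0.17 on the KO arrays, against −0.22, −0.09, 0.09 and 0.23 on the WT arrays. All KO arrays were negative in both classes, and so were WT 1 and, by less, WT 2. Kupffer minus general medians were −0.15, −0.23, −0.14 and −0.37 on the KO arrays, against −0.22, 0.03, −0.03 and 0.06 on the WT arrays. The groups overlapped through WT 1, whose value of −0.22 lay within the KO range of −0.37 to −0.14. The difference was not tested, since a score over chosen members has no valid p-value. It was −0.065 without WT 4, and −0.067 with the C1q chains counted as general myeloid.

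**Figure D4:**
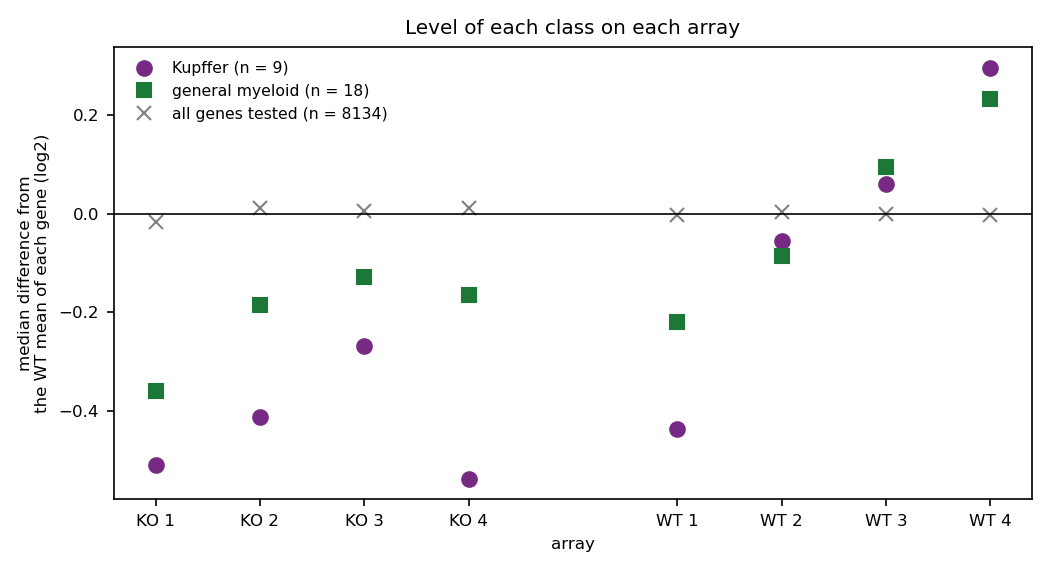
Median over the measured genes of each class of the level minus the WT mean (log2 units), for Kupffer genes and general myeloid genes on each KO array (left) and WT array (right). The Kupffer median lay between −0.54 and −0.27 on the KO arrays and between −0.44 and 0.30 on the WT arrays, with WT 1 inside the KO range.

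The arrays of a group differed in a way shared by many members. WT 1 was the lowest WT array in 20 of the 27 members (74.1%, against 30.6% of all genes), and WT 4 was the highest WT array in 20 members (74.1%, against 21.5% of all genes). WT 1 was the lowest in 8 of the 9 Kupffer genes, the exception being Cd163. Within the KO group the members were split. KO 1 was the lowest KO array in 9 members (33.3%, against 35.5% of all genes) and KO 4 the highest in 9 (33.3%, against 32.1%), shares near those of all genes. Clec4f, Vsig4, Cd163, Adgre1, Ctss, Laptm5 and Cd53 were among both. KO 4 was the lowest in 12 members (44.4%, against 30.1% of all genes). C1qa, C1qc, Fcgr1, Fcer1g, Tyrobp, Aif1, Lst1, Spi1, Coro1a, Ms4a7, Ccl6 and Marco made up these 12. The calls changed when single arrays were left out: 3 members were called lower without KO 1 (Folr2, Cd14 and Lst1, with 2.87% of all genes called lower), 1 without KO 2 (Lst1, with 0.955%), 2 without WT 1 (Folr2 and C1qb, with 1.38%) and 0 without any other single array. With array weights 9 members were called lower (Folr2, C1qa, C1qb, C1qc, Cd14, Fcer1g, Tyrobp, Aif1 and Lst1), but in that fit 13.4% of all genes were called lower.

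Other genes of the same cells and pathways were looked up in lists. Of 12 measured further Kupffer cell genes limma called 0 (0 also at an unadjusted p-value under 0.05), 6 were below 0 and 6 above, and their median was −0.02. The lowest p-values in it were those of Pcolce2 (−0.35, adjusted p = 0.335) and of Irf8, a myeloid transcription factor (0.28, adjusted p = 0.389). Of 11 measured partners of CSF1, Fc receptor and DAP12 signalling 0 were called (2 lower at an unadjusted p-value under 0.05), with a median of −0.09. They included Fcgr4, another IgG receptor (7.82, 7.59, 7.63 and 7.73 in KO livers, against 8.01, 7.88, 8.02 and 8.20 in WT livers, −0.33, adjusted p = 0.152), and Trem2, a lipid-sensing receptor that signals through DAP12 (−0.26, adjusted p = 0.255). Trem2 was detected on 1 KO array and 4 WT arrays, so it passed the filter through the WT group. Of the NADPH oxidase and integrin partners 3 were measured and 0 called (2 lower at an unadjusted p-value under 0.05). Cyba, the p22phox subunit, had levels of 7.18, 7.16, 6.44 and 6.12 in KO livers, against 7.24, 7.48, 7.45 and 7.75 in WT livers (−0.75 ± 0.23, adjusted p = 0.127). Its groups did not overlap, and KO 3 and KO 4 were the low arrays. Without KO 1 it was called (−0.91, adjusted p = 0.0446). Ncf4, the p40phox subunit, differed by −0.27 (adjusted p = 0.263).

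MHC class II genes, which antigen-presenting cells carry, had estimates of the opposite sign to most members. All 5 measured genes had estimates above 0 with a median of 0.53, and 2 were called higher. Cd74, the invariant chain, had levels of 8.99, 9.07, 8.97 and 9.01 in KO livers, against 8.13, 8.33, 8.40 and 8.64 in WT livers (0.63 ± 0.12, adjusted p = 0.0273). H2-Ab1, a class II beta chain, had levels of 8.34, 8.40, 8.23 and 8.26 in KO livers, against 7.56, 7.53, 7.76 and 7.96 in WT livers (0.60 ± 0.12, adjusted p = 0.0313). Both genes had KO arrays wholly above the WT arrays. Of 6 measured monocyte and recruited macrophage markers, Cd9, a tetraspanin that many cell types express, was called higher (7.28, 7.70, 7.47 and 7.57 in KO livers, against 6.70, 7.04, 6.99 and 6.65 in WT livers, 0.66 ± 0.14, adjusted p = 0.034), while the median of the list was −0.12 and 2 other markers, Lgals3 (−0.64, adjusted p = 0.0746) and Plac8 (−0.54), named after their values were seen, were lower at an unadjusted p-value under 0.05. These calls were lost in most fits without 1 array: Cd9 was called only without KO 1, H2-Ab1 without KO 1 or WT 4, and Cd74 without KO 1, WT 1 or WT 4. Under median scaling the adjusted p-values were 0.27 for Cd9, 0.285 for Cd74 and 0.273 for H2-Ab1.

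Markers of the other cells of the liver were followed in the same samples. Neutrophils express Lyz2 and the Fc receptor adaptors as macrophages do. Neutrophil markers had 5 of 13 genes measured, 0 called (1 lower at an unadjusted p-value under 0.05) and a median of −0.53. None of the 5 was detected on all 8 arrays. The median level of these markers minus the WT mean was −0.11, −0.28, −0.94 and −1.10 on KO arrays 1 to 4, against 0.08, 0.06, −0.55 and 0.45 on WT arrays 1 to 4. KO 3 and KO 4 were thus the lowest arrays, followed by WT 3. S100a8, a calcium-binding protein of neutrophils, had levels of 6.26, 6.35, 4.87 and 4.26 in KO livers, against 6.73, 6.87, 5.88 and 7.13 in WT livers (−1.22, adjusted p = 0.194), and Prtn3, proteinase 3, differed by −1.13 (adjusted p = 0.288). Prtn3 was detected on 2 KO arrays and 4 WT arrays, so it passed the filter mainly through the WT group. Within the KO group, Fcer1g, Tyrobp, Lst1 and Cyba were also lowest on KO 4, but so were C1qa, C1qc and Marco. Lyz2 went the other way, with levels of 8.28, 8.20, 8.76 and 8.74 on KO arrays 1 to 4. The part of neutrophils in the values of these genes was not tested.

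No gene was called in the lists of dendritic, T and NK, B, sinusoidal endothelial, stellate, hepatocyte or erythroid cells. At an unadjusted p-value under 0.05 limma gave 1 lower and 2 higher endothelial genes, 2 higher stellate genes, 1 higher hepatocyte gene, 1 higher dendritic cell gene and 0 of the others. The dendritic cell gene was Itgae, an integrin chain, which was detected on 4 KO arrays and 1 WT array and so passed the filter through the KO group. Without KO 1, Lyve1 (adjusted p = 0.0231), Tek (adjusted p = 0.0374) and Cps1 (adjusted p = 0.0464) were called higher, and without WT 1 Lyve1 was (adjusted p = 0.0469). Sinusoidal endothelial markers (12 of 13 measured) had a median of 0.18, with 9 above 0, among them Lyve1, a hyaluronan receptor that some macrophages also carry (0.96, adjusted p = 0.104), and Tek, the angiopoietin receptor (0.38, adjusted p = 0.137). Stellate cell and fibroblast markers (8 of 11 measured) had a median of 0.26 with all 8 above 0, among them Reln, reelin (0.41, adjusted p = 0.149), and Lum, lumican (0.44, adjusted p = 0.221). Both lists of non-parenchymal cells thus had medians above 0. Hepatocyte markers (7 of 10 measured) had a median of 0.10, with Cps1 at 0.50 (adjusted p = 0.119) and Asgr1 at 0.14 (adjusted p = 0.5; −0.11 under median scaling). Erythroid markers (3 of 6 measured) had a median of −0.27, with Alas2 and Hba-a1 having the lowest p-values. Of the lymphocyte lists, 3 of 15 T and NK cell genes (median −0.22, Prf1 and Ccl5 having the lowest p-values) and 1 of 6 B cell genes (Cd79b, 0.23) were measured, and of 9 dendritic cell genes 2 (Itgae and Batf3, median 0.11). With so few genes detected these lists describe those cells poorly.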

How the data were processed

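Total RNA of 8 livers (4 KO, 4 WT) was hybridised to Illumina MouseRef-8 v2.0 arrays, 1 per animal. The sample titles gave the group and the replicate number of each array. The authors deposited the bead-averaged intensity of each probe on a linear scale, not normalised, with a detection p-value, which ranks the deposited intensity of the probe among the negative control beads. A second table of the authors holds processed intensity values with equal medians, and was used only as an alternative. Image software and probe genome build: not given in the sources. The number of arrays limits the precision.

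Background was corrected by normexp from the detection p-values (offset 16; limma 3.58.1 in R 4.3.3), and arrays were quantile normalised on the log2 scale. Fold changes of dim probes are compressed by the offset, and changes of total RNA are removed by the normalisation. The platform annotation gave 1 symbol for 23978 of 25697 probes, several for 0 and none for 1719, and 23962 matched a RefSeq gene of GRCm38.p6. Probes detected on at least 4 of 8 arrays were kept, and the brightest kept probe on average stood for a gene (8134 genes). KO and WT were compared with lmFit and eBayes, two-sided and without covariates, with Benjamini-Hochberg adjustment over 8134 genes. Called genes had an adjusted p under 0.05. Confidence intervals are 95%. The fit was also run on simulated data with errors independent between genes, whereas members here deviated together on arrays such as WT 1.

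The members and lists were chosen with earlier results of these data known. Named were all measured members, Snd1 and, of each list, the called genes or, where none was called, the 2 with the lowest p. Of 48 probes for members, 10 further kept probes of 6 measured genes were compared, and 5 of these had the opposite sign. Alternatives were an offset of 50, no background correction, median scaling, the authors' processed values, no or a stricter filter, the mean of kept probes, array weights, a replicate block, the C1q chains counted as general myeloid, leaving out each array, and, added after seeing the data, KO 2 and KO 3 alone.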

Additional observations from a re-analysis of the deposited data

Results flagged for a closer look

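Of 114 groups of 4 arrays examined, 5 had a lowest or highest array far from the other 3, and chance gives about 1 in 20 such groups. Among the members, Folr2 had a level of 6.49 on WT 1, with 7.07 to 7.15 on the other WT arrays. Marco had a level of 6.86 on WT 4, with 5.04 to 5.32 on the other WT arrays. Cd14 had a level of 5.49 on KO 1, with 5.03 to 5.10 on the other KO arrays. Outside the members, KO 1 stood apart for the endothelial marker Lyve1 (6.31, with 7.13 to 7.22 on the other KO arrays) and the hepatocyte receptor Asgr1 (12.31, with 12.11 to 12.13).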

How the results depend on the processing

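The count of called genes, 207 with the settings described, was 97 with median scaling (14.4% of them higher in KO, against 46.4%), 96 without a detection filter, 2190 with array weights and 38 to 513 when 1 array was left out. Called members were 0 in the other settings run, 9 with array weights and 0 to 3 with 1 array left out. Median scaling moved the median of all genes to −0.05. The median log2 fold change of the Kupffer genes was −0.21 both in the authors' processed table and when no background was removed (−0.21), scales that compress dim probes, and −0.53 to −0.27 with 1 array left out. That of the general myeloid genes was −0.088 in both of these settings, −0.12 with an offset of 50 and −0.11 without a filter. It was −0.28 with the stricter filter and −0.27 to −0.11 with 1 array left out. Lst1 was −0.51 with an offset of 50. The difference between the Kupffer and general medians was −0.33 to −0.065 with 1 array left out and below 0 in every setting run. With the replicate number as a block 92 genes and 0 members were called (lowest member adjusted p 0.0819, Folr2), and Cd9 (0.0582), Cd74 (0.0666) and H2-Ab1 (0.0827) were no longer called. Without a filter Cd9 (0.0625) and H2-Ab1 (0.0501) were not called, and with KO 2 and KO 3 alone Cd74 (0.0573) and H2-Ab1 (0.065) were not. The labels do not state that a number marks a pair, and the deviations of arrays with the same number correlated at 0.09, −0.09, 0.12 and −0.01 over genes.

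Signs changed for members with estimates between −0.17 and 0.05 and for 2 list genes. With median scaling Lgmn was −0.10, Coro1a −0.0012, Serping1 −0.10 and Asgr1 −0.11. With the mean of kept probes Ctsc was 0.022 and Coro1a −0.053. With array weights Ctsc was 0.14, Lgmn −0.065 and Laptm5 0.016. With KO 2 and KO 3 alone, an alternative chosen after seeing the data, Ctsc was 0.13, Lgmn −0.16 and Spi1 0.011. With 1 array left out the estimates were −0.35 to 0.033 for Vsig4, −0.12 to 0.058 for Ctss, −0.19 to 0.17 for Ctsc, −0.26 to 0.085 for Laptm5, −0.10 to 0.13 for Lgmn, −0.073 to 0.22 for Cd53, −0.010 to 0.12 for Coro1a and −0.0053 to 0.10 for Ms4a7. The cause was not tested. Members near background, such as Fcgr1, Spi1, Ms4a7 and Ctss, had the least room to show a lower level.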
